A study of Mus musculus with 6 samples.

Results

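*Hoxa2* to *Hoxa7* are the anterior and middle genes of the *Hoxa* cluster on mouse chromosome 6, and their accessible chromatin was compared between parent and enhancer-deleted neural stem/progenitor cells (NSPCs). A member interval was a distinct accessible interval whose strongest summit had one of these 6 genes as its nearest protein-coding transcription start site (TSS), at most 50 kb away. In all, 19 of 190252 distinct intervals met this rule, with 12 of 82885 in the parent list and 7 of 107480 in the deletion list. ATAC-seq uses a transposase that cuts and tags open DNA, so that reads pile up at promoters and enhancers. All cells were F1 NSPCs with 1 129 and 1 *Castaneus* genome, differentiated in vitro from embryonic stem cells and kept in N2B27 medium with EGF and bFGF. The parent group held 3 cultures of the *Sox2*-mCherry line. The ΔSRR2-18 group held 3 cultures of the line labelled 47D, in which Cas9 had removed the *Sox2* enhancer cluster SRR2-18 from both alleles. Each genotype is thus represented by 1 cell line, and a difference between the groups cannot be told apart from one between lines. For each genotype the authors deposited lists pooled over the 3 cultures, so no value had a replicate error and no difference between genotypes could be tested.

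*Hox* genes encode homeodomain transcription factors that give cells along the head-to-tail axis their positional identity. Within a cluster the genes lie in the order in which they are used, from the anterior end to the posterior *Hoxa13* end, and their domains begin progressively further back in the hindbrain and spinal cord. Retinoic acid, caudal (CDX) factors and HOX proteins with PBX and MEIS partners regulate the clusters, and CTCF marks domain borders within them.

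The labels give 50 to 60 M reads per library for both genotypes. Solving the peak caller's values for read pileup gave a genome-wide background of 38.8 reads in the parent list and 19.7 in the ΔSRR2-18 list, a ratio of 1.98. Each pileup below was therefore divided by the lowest background of its own list and is called the scaled pileup. The local background, which the peak caller takes from the surroundings of a summit, was scaled in the same way. All 6 NSPC marker promoters examined (*Sox2*, *Nes*, *Pax6*, *Sox1*, *Fabp7* and *Vim*) held an interval in both lists, and those of 3 pluripotency and 2 astrocyte markers held none. Of 3 neuronal markers, 1 held a promoter interval in the parent list and 2 in the ΔSRR2-18 list, and 2 of 3 oligodendrocyte markers did so in each. Between the sites cut by the guide RNAs on chromosome 3 lay 4 parent intervals and 0 ΔSRR2-18 intervals.

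The sequences at the 3 *Hoxa2* intervals are shown first, because they were listed in parent NSPCs and no ΔSRR2-18 interval was assigned to this gene. Each window holds 121 bases of the plus strand of GRCm38 (mm10) centred on the strongest summit, and capitals mark matches to the SOX consensus ACAANG on either strand.
*Hoxa2*, summit 331 bp upstream, chr6:52165102-52165222: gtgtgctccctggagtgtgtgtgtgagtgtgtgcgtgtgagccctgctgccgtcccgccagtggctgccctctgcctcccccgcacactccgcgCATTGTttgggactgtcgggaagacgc
*Hoxa2*, summit 1108 bp upstream, chr6:52165879-52165999: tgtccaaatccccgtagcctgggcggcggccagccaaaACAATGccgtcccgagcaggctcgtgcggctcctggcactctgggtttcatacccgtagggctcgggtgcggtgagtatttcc
*Hoxa2*, summit 3999 bp upstream, chr6:52168770-52168890: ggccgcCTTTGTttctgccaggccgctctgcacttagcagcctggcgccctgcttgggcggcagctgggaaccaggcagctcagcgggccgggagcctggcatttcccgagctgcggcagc
A SOX match within 100 bp of the summit stood in all 3 windows. It stood in 4 of the 12 parent member intervals (33.3%), beside 40.5% of all parent intervals.
The 250 bases upstream of the *Hoxa2* start are given by RefSeq (GRCm38.p6, minus strand, in the direction of transcription), and capitals mark matches to the HOX-PBX consensus TGATNNAT and to the SOX consensus.
*Hoxa2* promoter, chr6:52164832-52165081: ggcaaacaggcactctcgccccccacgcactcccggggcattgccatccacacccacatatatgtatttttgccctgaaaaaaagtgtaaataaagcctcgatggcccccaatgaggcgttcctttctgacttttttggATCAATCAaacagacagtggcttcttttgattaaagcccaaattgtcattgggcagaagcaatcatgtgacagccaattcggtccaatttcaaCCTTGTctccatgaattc
The parent list covered all 250 of these bases and the ΔSRR2-18 list covered 0. The HOX-PBX consensus occurs in 7.68% and the SOX consensus in 36.3% of 32851 RefSeq promoter windows of that length.

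The opposite case is shown by 2 intervals listed in ΔSRR2-18 NSPCs alone, with windows of the same kind and capitals for the AP-1 consensus TGANTCA and the SOX consensus.
*Hoxa4*, ΔSRR2-18 list only, summit 6311 bp downstream, chr6:52185382-52185502: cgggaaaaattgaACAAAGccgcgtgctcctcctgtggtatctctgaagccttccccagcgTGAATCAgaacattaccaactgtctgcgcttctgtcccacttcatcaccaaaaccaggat
*Hoxa7*, ΔSRR2-18 list only, summit 75 bp upstream, chr6:52217520-52217640: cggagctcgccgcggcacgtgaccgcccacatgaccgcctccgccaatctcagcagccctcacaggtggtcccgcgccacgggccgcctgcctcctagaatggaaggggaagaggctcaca
The consensus leaves its middle letter open, so a match need not be a site that AP-1 binds, and binding was not tested. The match at *Hoxa4*, TGAATCA, starts 1 bp from the summit. It was the single AP-1 match within 100 bp of a summit among the 19 member intervals, against 37.9% of all ΔSRR2-18 intervals and 7.28% of all parent intervals. The *Hoxa7* window, whose summit lay in a *Hoxa7* intron, held no match to any of the 8 consensus sequences searched.

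The last windows come from 2 intervals found in both lists, and capitals mark the EGR consensus GCGNGGGCG, the HOX-PBX consensus and the CTCF consensus.
*Hoxa4*, shared, parent summit 224 bp upstream, chr6:52191917-52192037: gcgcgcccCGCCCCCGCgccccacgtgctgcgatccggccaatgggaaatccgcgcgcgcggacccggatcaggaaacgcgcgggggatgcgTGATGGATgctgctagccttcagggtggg
*Hoxa7*, shared, parent summit 3125 bp upstream, chr6:52221776-52221896: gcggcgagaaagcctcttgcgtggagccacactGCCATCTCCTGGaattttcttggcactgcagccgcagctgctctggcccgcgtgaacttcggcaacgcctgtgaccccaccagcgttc
The same EGR and HOX-PBX matches lay within 100 bp of the *Hoxa4* summit of either list, and the same CTCF match within 100 bp of the *Hoxa7* summit of either list.

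Of the 12 parent member intervals, 6 had no overlapping interval in the ΔSRR2-18 list (50%, 95% Wilson interval 25.4 to 74.6%), beside 45% of the 55017 parent intervals assigned to any protein-coding gene. Of the 7 ΔSRR2-18 member intervals, 2 had none in the parent list (28.6%, 8.22 to 64.1%), beside 53% of 64666. Both intervals of the member shares include the share over all genes, and they cover counting error alone. The intervals listed in parent NSPCs alone lay at *Hoxa2* (3), *Hoxa4* (2) and *Hoxa5* (1), and those listed in ΔSRR2-18 NSPCs alone at *Hoxa4* (1) and *Hoxa7* (1). *Hoxa3* had no assigned interval confined to 1 list, and *Hoxa6* had no interval in either.

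**Figure D1:**
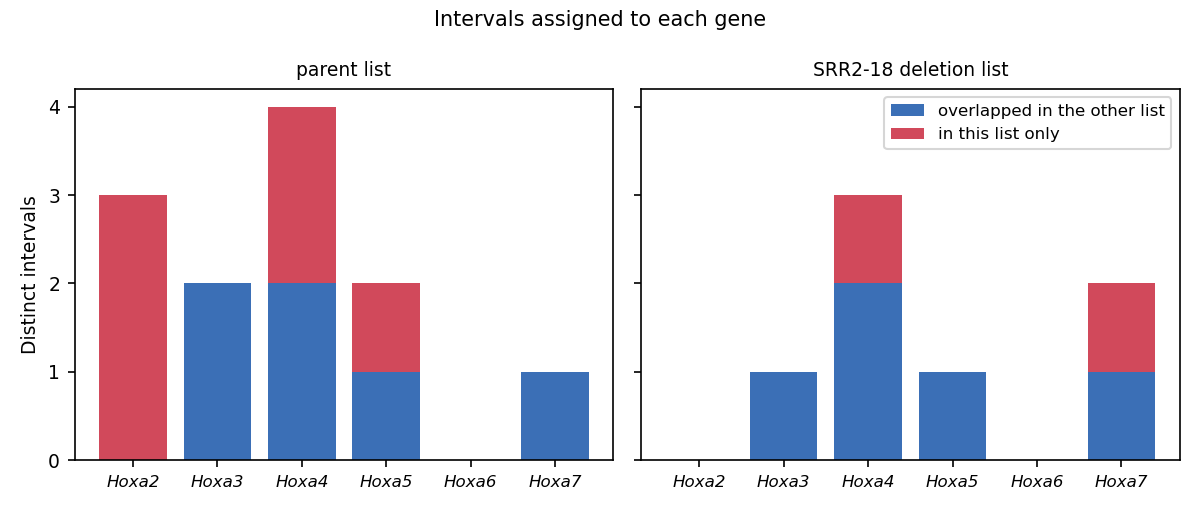
Number of distinct intervals assigned to each gene (y axis) in the parent list (left) and the ΔSRR2-18 list (right), with intervals overlapped in the other list in blue and those in 1 list alone in red. *Hoxa2* has 3 red parent intervals and none on the right, and *Hoxa7* has 1 parent interval and 2 in the ΔSRR2-18 list.

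From the most upstream *Hoxa7* TSS of the basic annotation to the end of *Hoxa2* (chr6:52162417-52218711, 56295 bp), 16 parent intervals covered 13077 bp, or 23.2%, and 10 ΔSRR2-18 intervals covered 7691 bp, or 13.7%. These counts include 5 parent and 3 ΔSRR2-18 intervals inside the *Hoxa3* gene that were assigned to 5730596B20Rik, a gene model within it, and 1 ΔSRR2-18 interval assigned to Gm28308, a model that runs across several *Hoxa* genes. Of the 5 parent intervals, 2 had no overlap in the ΔSRR2-18 list (chr6:52171404-52171778 and chr6:52183089-52184360, with scaled pileups of 48.8 and 11.3). The strongest of them all (chr6:52172353-52173012, in *Hoxa3* coding sequence) had a scaled pileup of 128.8 in the parent list and 43.8 in the ΔSRR2-18 list.

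**Figure D2:**
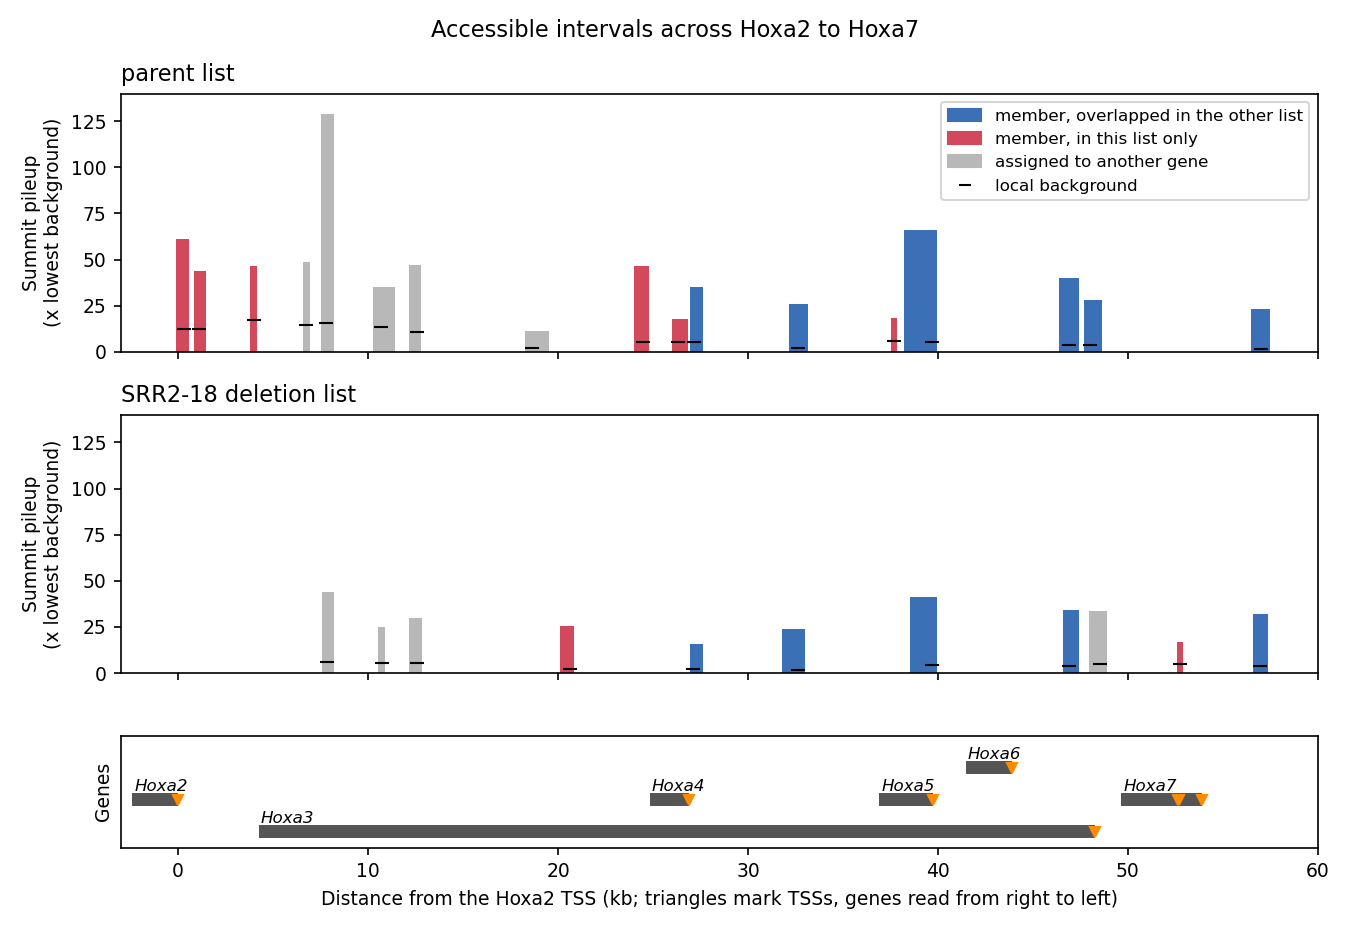
Scaled pileup (y axis, multiples of the lowest background of the list) of each interval against distance from the *Hoxa2* TSS (x axis, kb), for the parent list (top) and the ΔSRR2-18 list (middle), with the 6 genes below. Bars have the width of the interval (at least 0.3 kb), black dashes give the scaled local background, and the 3 red *Hoxa2* bars at the left have no counterpart in the middle panel.

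*Hoxa2* (ENSMUSG00000014704.10, chr6:52162417-52164831, minus strand) is the most anterior *Hox* gene expressed in the hindbrain and patterns rhombomeres and cranial neural crest. The summits of its 3 parent intervals all lay upstream of the TSS. The first (chr6:52164742-52165408) spanned the TSS, with a fold enrichment of 4.89, a −log10 p of 821 and a scaled pileup of 61.2. The second (chr6:52165678-52166288) had a fold enrichment of 3.57, a −log10 p of 412 and a scaled pileup of 43.9. The last (chr6:52168612-52169008) had a fold enrichment of 2.70, a −log10 p of 288 and a scaled pileup of 46.6. All 3 stood high in the parent list by pileup (the top 17.5, 24.5 and 23.2%) and low by fold enrichment (the top 84.5, 94.8 and 98.2%), since their scaled local backgrounds were 12.5, 12.3 and 17.2 against a list median of 1.57. The summits of the other two fell in exons of *Hoxaas2*, an antisense transcript. Recalculated for the shallower depth of the ΔSRR2-18 list, the −log10 p became 417, 210 and 147, which exceeded 68.4, 48.4 and 37.1% of the intervals in that list. The ΔSRR2-18 interval nearest to the *Hoxa2* TSS was 3420 bp away. Of 7773 protein-coding genes with at least 3 parent intervals, 81 (1.04%) had no ΔSRR2-18 interval, *Hoxa2* among them. This count depends on the gene models: without 5730596B20Rik and Gm28308 as nearest genes, *Hoxa2* had 7 parent intervals, 4 of them in that list alone, and 3 ΔSRR2-18 intervals.

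*Hoxa3* (ENSMUSG00000079560.13, chr6:52169062-52213336) acts in the caudal hindbrain and in the pharyngeal arches that form thymus and parathyroid. Its TSS of the basic annotation, at 52213115, was covered in both lists. A *Hoxa3* TSS at 52183855, which the comprehensive annotation alone holds, was covered in the parent list only, by an interval assigned to 5730596B20Rik. An interval 1383 bp downstream of the TSS in parent NSPCs (chr6:52211229-52212277) and 1390 bp downstream in ΔSRR2-18 NSPCs (chr6:52211393-52212250) had scaled pileups of 40.0 and 34.0, a ΔSRR2-18 to parent ratio of 0.849 (95% counting interval 0.775 to 0.929). Both summits had a match to the CDX consensus TTTATNG within 100 bp, which 7.46% of all list entries had. A second parent interval over the TSS (chr6:52212549-52213479) overlapped a ΔSRR2-18 interval (chr6:52212792-52213711) whose summit lay 536 bp away and 14 bp from the Gm28308 TSS, so it is not a member interval. Their scaled pileups were 28.0 and 33.4, a ratio of 1.19 (1.08 to 1.31).

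*Hoxa4* (ENSMUSG00000000942.10, chr6:52189671-52191753), whose anterior border lies in the caudal hindbrain, had the most member intervals, 4 in the parent list and 3 in the ΔSRR2-18 list. The intervals of its promoter began 42 bp upstream of the TSS in both lists (chr6:52191795-52192451 in parent and chr6:52191795-52192458 in ΔSRR2-18 NSPCs), with scaled pileups of 35.3 and 15.5. The ratio of 0.440 (0.389 to 0.498) was the lowest of the 6 member pairs. Scaled local background at this pair was 5.51 in the parent list and 2.15 in the ΔSRR2-18 list, and fold enrichment was 6.38 and 7.06. The order of the genotypes thus differed between the pileup and the fold enrichment. A distal pair 5717 bp upstream (chr6:52197018-52197986 in parent and chr6:52196607-52197809 in ΔSRR2-18 NSPCs), in a *Hoxa3* intron, had its summit at the same base in both lists. Its scaled pileups were 26.0 and 23.7, and the counting interval of their ratio, 0.912 (0.817 to 1.02), included equality.

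Downstream of the *Hoxa4* TSS the lists held different intervals. A parent interval 2434 bp downstream (chr6:52188844-52189645), past the end of the gene, had a fold enrichment of 8.54, a −log10 p of 994 and a scaled pileup of 46.4. At the depth of the ΔSRR2-18 list its −log10 p of 505 exceeded 73.6% of that list, more than any other member interval found in parent NSPCs alone. A weaker parent interval in the *Hoxa4* intron (chr6:52190835-52191665) had a fold enrichment of 3.36, a −log10 p of 158 and a scaled pileup of 18.0. The ΔSRR2-18 interval shown above, 6311 bp downstream (chr6:52184938-52185649) in a *Hoxa3* intron and an exon of the transcript Gm29430, had a fold enrichment of 10.6, a −log10 p of 323 and a scaled pileup of 25.5. Its −log10 p exceeded 61.0% of the parent list at matched depth, and its scaled local background of 2.37 stood beside a list median of 1.51. The comprehensive annotation also holds a *Hoxa3* TSS at 52184874. The summit of this interval lay 568 bp upstream of that TSS, which the interval did not cover.

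*Hoxa5* (ENSMUSG00000038253.6, chr6:52201754-52204587), which patterns the cervical level and the lung, had a promoter interval in both lists. It was the strongest member interval of either list by pileup, with a scaled pileup of 66.2 in parent NSPCs (chr6:52203067-52204808) and 41.5 in ΔSRR2-18 NSPCs (chr6:52203384-52204795). The summits were 2 bp apart and the ratio was 0.626 (0.579 to 0.677). A further parent interval (chr6:52202350-52202655), in a UTR exon of *Hoxa5* 2058 bp downstream of the TSS, had a fold enrichment of 3.13 and a scaled pileup of 18.3. At matched depth its −log10 p of 74.5 exceeded 15.6% of the ΔSRR2-18 list, the lowest share among the intervals found in parent NSPCs alone. It held the single match among members to the DR2 pattern searched, which 0.581% of all list entries had. The pattern stands for a repeat of the kind that retinoic acid receptors bind, but it left letters open in both copies of the repeat. A match therefore need not be a site that these receptors bind, and binding was not tested. The DR5 pattern, open in the same way, was matched at 0 of 19 member summits, and at 0.611% of all.

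*Hoxa6* (ENSMUSG00000043219.9, chr6:52206288-52208722), a gene of the thoracic level, had no interval. The nearest interval was 2507 bp from its TSS in the parent list and 2671 bp in the ΔSRR2-18 list.

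*Hoxa7* (ENSMUSG00000038236.8, chr6:52214491-52221854), the most posterior of the 6 genes, had 1 interval in the parent list and 2 in the ΔSRR2-18 list. With lists of equal length, or at a −log10 p of at least 100 at matched depth, it had 1 in each. Its TSSs at positions 52217452 and 52217505 were covered by a ΔSRR2-18 interval (chr6:52217419-52217729) and by no parent interval, the nearest of which was 3798 bp from the latter. This interval had a fold enrichment of 3.59, a −log10 p of 83.8 and a scaled pileup of 17.0, and it exceeded 26.9% of the parent list by −log10 p at matched depth. It was also the single member interval with an IDR score under 1000, at 856, where the score measures agreement of rank between replicates. The TSS at 52218711 was covered in neither list. Of the 250 bases of the RefSeq *Hoxa7* promoter window (chr6:52218574-52218823), either list covered 0.

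The shared *Hoxa7* pair lay further upstream (chr6:52221303-52222313 in parent and chr6:52221430-52222212 in ΔSRR2-18 NSPCs), with its parent summit 3125 bp from the nearest TSS of the basic annotation and 18 bp from a *Hoxa7* TSS at 52221854 that the comprehensive annotation alone holds. This was the pair with the CTCF match shown above. The CTCF consensus was found at 7.98% of all parent and 5.07% of all ΔSRR2-18 intervals. Scaled pileup was 23.0 in the parent list and 32.0 in the ΔSRR2-18 list, a ratio of 1.39 (1.26 to 1.54) and the highest of the member pairs. Scaled local background was 1.54 and 4.06, a ratio of 2.63 that exceeded those of 93.9% of all shared pairs. Fold enrichment ran the other way, 14.7 in parent and 7.81 in ΔSRR2-18 NSPCs.

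**Figure D3:**
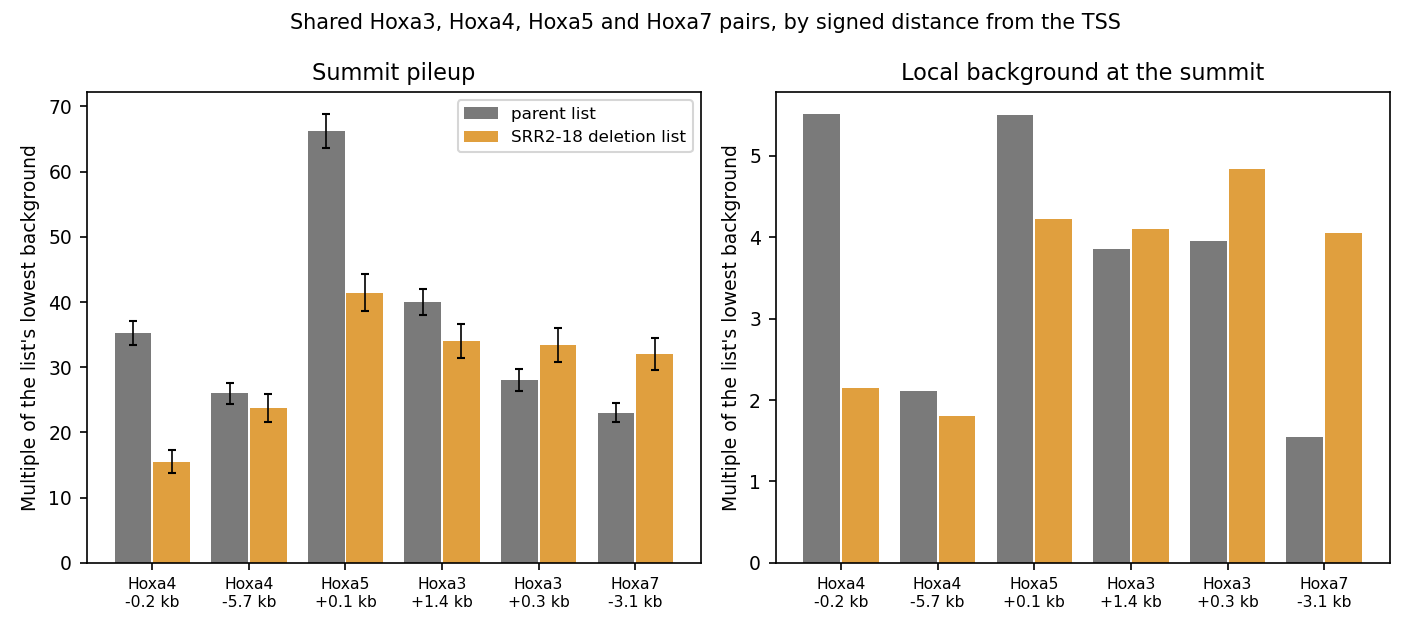
Scaled pileup (left) and scaled local background (right) of the 6 shared member pairs in the order of the chromosome, parent in grey and ΔSRR2-18 in orange, in multiples of the lowest background of each list. Whiskers are 95% counting intervals, and the orange bar is the higher one for pileup in the 2 rightmost pairs and for background in the 3 rightmost.

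Over all 39096 shared pairs of the genome the median ratio of scaled pileup was 0.848, a log2 of −0.24, and that of local background 0.904, a log2 of −0.14. The scaled pileup was higher in the ΔSRR2-18 list in 2 of 6 member pairs, beside 38.8% of all pairs. It was more than 2-fold lower in 1 of 6 (*Hoxa4* promoter), beside 16% of all pairs, and more than 2-fold higher in 0 of 6, beside 15.8%. Relative to the median ratio of all pairs, 4 of the 6 were higher, among them the distal *Hoxa4* pair and the downstream *Hoxa3* pair, the latter by a log2 of 0.0019. Local background was higher in the ΔSRR2-18 list in 3 of 6 pairs, beside 31.6%.

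The ratios tended to be higher towards *Hoxa7*. From the *Hoxa4* promoter towards *Hoxa7* the ratio of local background was 0.391, 0.856, 0.769, 1.06, 1.23 and 2.63. The rank correlation with position was 0.94 for local background and 0.83 for pileup (Spearman's rho over 6 pairs, as a description). Neighbouring pairs share their surroundings, so the 6 values are not independent. Among the other pairs of the cluster, in 3 between *Hoxa2* and *Hoxa4*, assigned to 5730596B20Rik, pileup was higher in ΔSRR2-18 NSPCs in 0 of 3 (ratios 0.341 to 0.715), and in 4 on the posterior side, assigned to *Hoxa9*, *Hoxa10* and *Hoxa13*, in 3 of 4 (0.519 to 2.58). The exception on the posterior side was the *Hoxa13* pair, at 0.519. Reads in a bulk list cannot separate fewer cells with an open site from less opening per cell.

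**Figure D4:**
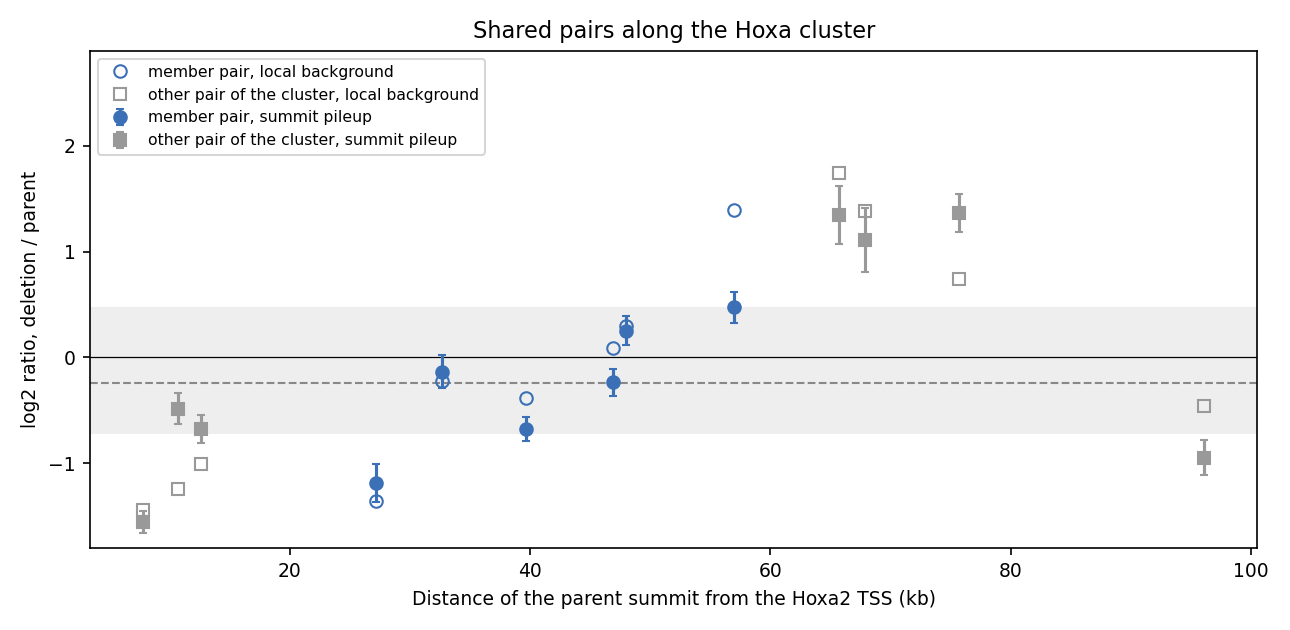
Log2 ratio of ΔSRR2-18 to parent (y axis) against the distance of the parent summit from the *Hoxa2* TSS (x axis, kb) for member pairs (blue circles) and other *Hoxa* pairs from the *Hoxa2* TSS onwards (grey squares), filled for scaled pileup with 95% counting intervals and open for scaled local background. The dashed line is the median pileup ratio of all shared pairs and the grey band their middle quartiles, and member values run from −1.18 at the *Hoxa4* promoter to 0.48 at *Hoxa7*.

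The strongest summit lay within 1 kb of any annotated TSS, coding or not, in 6 of 12 parent and 3 of 7 ΔSRR2-18 member intervals. The shares over all intervals assigned to a protein-coding gene were 28.3 and 25.7%. The parent interval 1108 bp upstream of *Hoxa2* counted only through a *Hoxaas2* TSS 265 bp away. The rule itself asks for a TSS within 50 kb, so nearness to a TSS is in part built into these counts. The median GC content within 100 bp of the summit was 61.2% for parent and 58.7% for ΔSRR2-18 members, beside 53.7 and 50.7% over the assigned intervals of each list. A TSS was covered by an interval in 3 of the 6 genes in each list, beside 58.5 and 61.4% of 21951 protein-coding genes. By these TSSs of the basic annotation, *Hoxa3* and *Hoxa5* were covered in both lists, *Hoxa2* in the parent list and *Hoxa7* in the ΔSRR2-18 list. The comprehensive annotation adds a *Hoxa7* TSS at 52221854 and a *Hoxa3* TSS at 52213336 that were covered in both lists, a *Hoxa3* TSS at 52183855 that was covered in the parent list, and TSSs at 52184874 (*Hoxa3*) and 52220393 (*Hoxa7*) that were covered in neither. The HOX-PBX consensus was found at 5 of 19 member summits (26.3%, 95% Wilson interval 11.8 to 48.8%), beside 10.0% of all list entries, and those 5 stand for 3 places, since the *Hoxa4* and *Hoxa5* promoters count in both lists. Within 50 bp of the summit the share was 1 of 19 (5.26%), beside 5.27% of all list entries. The SOX consensus was found at 5 of 19 (26.3%, 11.8 to 48.8%), beside 36.7%. Places found in both lists enter the 19 once per list, so both Wilson intervals are narrower than separate places would give.

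Other genes of the *Hox* network were counted by the same rule. Over all genes, 45% of assigned parent intervals and 53% of assigned ΔSRR2-18 intervals stood in 1 list alone. The 11 paralogs of groups 2 to 7 in the other clusters had 8 of 23 parent intervals (34.8%) and 17 of 34 ΔSRR2-18 intervals (50%) in 1 list alone, with every interval of *Hoxb7* (2) and *Hoxc6* (5) in the ΔSRR2-18 list and that of *Hoxd4* (1) in the parent list. Of 12596 protein-coding genes with at least 2 ΔSRR2-18 intervals, 680 (5.40%) had no parent interval, and of 16127 with a parent interval, 731 (4.53%) had no ΔSRR2-18 interval. The PBX and MEIS cofactors had 20 of 42 and 14 of 37. The retinoic acid receptors and enzymes had 20 of 48 and 32 of 60, with *Cyp26c1*, which encodes an enzyme that degrades retinoic acid, at 0 parent and 3 ΔSRR2-18 intervals. The caudal factors *Cdx1*, *Cdx2* and *Cdx4* had 2 of 6 and 3 of 7. *Hoxa4* shared its pattern of counts exactly with 123 of 17605 genes outside the *Hox* clusters, so no gene is named as most like it.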

How the data were processed

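The authors took 3 parent and 3 ΔSRR2-18 cultures through ATAC-seq and made pooled lists on mm10 with MACS2 and IDR in the ENCODE pipeline. The deposited lists hold for each summit an IDR score, the fold enrichment, a −log10 p and a −log10 q, the last of which was not used. Further pipeline settings are not given in the sources used here. The submitters' processing notes also name deepTools. The conservative lists were used.

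Distinct intervals took the values of the summit with the highest fold enrichment, and the summit with the most reads gave the ratio of a shared pair. Pileup and local background were solved from the deposited fold enrichment, computed with 1 read added to both, and from the −log10 p. The pileups came out whole within 0.05 for 99.9993% of parent and 100% of ΔSRR2-18 summits. The local backgrounds were not checked in this way. Pileup heights are not counts of distinct fragments, and PCR copies are not independent molecules, so intervals on ratios cover counting error only. Depth per culture was not recovered.

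TSSs came from the GENCODE M21 basic annotation. An overlap of 1 bp made intervals shared, and a pair was a mutual best overlap. For matched depth, pileups and backgrounds were divided by the depth ratio and the Poisson −log10 p recalculated. Consensus letters were searched exactly, on both strands, up to 100 bp from the strongest summit, and the palindromic AP-1 consensus counted once per site. An N in a consensus matched any base. Sequences came from GRCm38, and from RefSeq for promoters. RefSeq windows were found for 5 of the 6 genes (not *Hoxa4*). Reads of the *Castaneus* allele can map less often to mm10, and the lists do not separate alleles.

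All member genes were named. Some genes of the network and the gene groups that held them are not reported here. Described in full were intervals within 1 kb of a member TSS, the 3 highest by fold enrichment in each list and all found in 1 list alone. Members, gene lists and motifs were chosen with earlier results of these data known. The alternatives were the optimal lists, merged intervals, other summit, overlap, distance, promoter and motif limits, stricter IDR or −log10 p thresholds, equal list lengths and other scalings of pairs. Calculations were tested on simulated data and run in Python 3.11.15 with NumPy 2.4.6, pandas 2.3.3, SciPy 1.17.1 and matplotlib 3.10.9.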

Additional observations from a re-analysis of the deposited data

How the results depend on the processing

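Each list pools 3 cultures, so no culture could be left out. No paired analysis was possible because the lists carry no value per culture. Of 76 recomputed values under 18 alternatives, 67 kept their direction or stayed within 1.5 times the reported count. The number of member intervals found in ΔSRR2-18 NSPCs alone, 2 as reported, was 1 with lists of equal length by fold enrichment or by −log10 p, and 1 at a −log10 p of at least 100 at matched depth, an alternative added after seeing the data. The interval lost was that over the *Hoxa7* TSSs. Without the gene models Gm28308 and 5730596B20Rik, also added after seeing the data, ΔSRR2-18 members rose from 7 to 11 and shared members from 11 to 18, because intervals inside *Hoxa3* were then assigned to member genes. *Hoxa2* then had 7 parent intervals, 4 of them in that list alone, and 3 shared ΔSRR2-18 intervals. Pairs with a higher pileup in ΔSRR2-18 NSPCs, 2 of 6, were 4 when scaled by the median ratio of all pairs and 1 of 5 with summits within 100 bp. Members near any annotated TSS, 9 of 19, were 14 with a distance of 2.5 kb. The share with a HOX-PBX consensus, 26.3%, was 5.26% within 50 bp, beside 5.27% of all list entries. The optimal lists added a weak *Hoxa2* interval to the parent list (chr6:52164312-52164591, fold enrichment 2.00) and a *Hoxa4* interval to the ΔSRR2-18 list (chr6:52190324-52190734, 4.22). The background depth of the parent list was 1.98 times that of the ΔSRR2-18 list, and an interval missing from a list may lie below its threshold.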
